A study of Mus musculus with 15 samples.

Results

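Cdx1, Cdx2, Cdx4, T (Brachyury), Tbx6, Msgn1, Evx1 and Nkx1-2, transcription factors of the caudal progenitors that lengthen the embryonic axis, were followed by name through RNA sequencing of the mouse aorta-gonad-mesonephros (AGM) region. All 8 genes were found once each among the 28876 genes of the table. The study dissected the AGM region, the embryonic tissue around the dorsal aorta in which blood stem cells arise, to find what separates its subdomains. The dorsal part of the aorta region (AoD) and the ventral part (AoV) were taken at embryonic day E9.5 and again at E10.5, and the urogenital ridges (UGR) at E10.5. Every embryo was of the C57BL/6 strain, with no treatment or mutation given in the labels, and each of the 5 groups held 3 libraries, each made from tissue pooled over 15 to 34 embryos.

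The posterior body is laid down from a tail bud, where progenitors held in a Wnt and FGF environment give rise to both spinal cord and paraxial mesoderm. Nkx1-2 and T mark such progenitors, Tbx6 and Msgn1 commit cells to presomitic mesoderm, and the Cdx factors carry Wnt input to the posterior Hox genes. Several of these factors have further sites of expression. Cdx2 is the master regulator of hindgut endoderm, T is required in the notochord, and Evx1 is also found in spinal interneurons.

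Depth, worked out from the smallest step between values, was 33.7 to 48.6 megareads assigned to genes per library, so that 3 reads correspond to 0.0617 to 0.0889 reads-per-million (RPM). RPM is the unit of all levels here, and it is adjusted for neither gene length nor RNA content. Because the tissue was profiled in bulk, fewer cells of a type and less RNA per cell cannot be told apart. A gene was called changed when limma gave a Benjamini-Hochberg adjusted p under 0.05 and a fold change of at least 2, that is 1 on the log2(RPM + 0.1) scale. Fold changes on that scale understate those of low genes. As a check of the labelled tissues, the summed level of 7 nephric genes was 285 to 305 RPM in the UGR libraries against 53.4 to 75.6 RPM in the E10.5 AoD and AoV libraries. All 7 were called lower in E10.5 AoV than in UGR and 6 in E10.5 AoD, where Ret averaged 43.9 RPM against 30.4 RPM in UGR.

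The genes lie on 7 chromosomes of build NCBIM37 and none shares a 50-base stretch with another annotated coding transcript. T spans chr17:8627288-8635361 on the plus strand, Tbx6 spans chr7:133924997-133929074 on the plus strand, and Msgn1 spans chr12:11215188-11215754 on the minus strand with a gene model of 567 bases. Cdx2 lies at chr5:148112381-148118846 on the minus strand and Cdx4 at chrX:100516737-100525931 on the plus strand. Evx1 is at chr6:52263492-52268372 on the plus strand, 52.6 kb from Hoxa13 at the 5′ end of the HoxA cluster, and Nkx1-2 is at chr7:139786560-139791320 on the minus strand. The exons of Evx1 and Nkx1-2 each overlap those of another annotated gene, 5730457N03Rik and Gm16764, by coordinates taken without regard to strand. The strand setting of the counting is not given in the sources used here, so reads of these partners cannot be told apart from those of the members. Of the values of at most 20 reads, 6 of 9 for Nkx1-2 and 2 of 9 for Evx1 were not whole reads within 0.05 reads, and their read numbers are rounded.

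RefSeq promoter stretches (GRCm38.p6) were matched for 7 of the 8 genes, and each 250-base stretch before the start site was found once, letter for letter, in NCBIM37. The stretches of T and Msgn1 are shown because they held matches to the TCF/LEF motif, through which Wnt signals act, and those of Cdx2 and Evx1 because both genes were highest in E9.5 AoV. Capitals mark motif matches on either strand. The letters searched were CTTTGAA and CTTTGAT for TCF/LEF, TTTATNG for CDX and AGGTGTNA for T-box factors. The coordinates are chr17:8627038-8627287 (plus) for T, chr12:11215755-11216004 (minus) for Msgn1, chr5:148118826-148119075 (minus) for Cdx2, whose RefSeq start lies 21 bases inside the NCBIM37 gene, and chr6:52263242-52263491 (plus) for Evx1.
T: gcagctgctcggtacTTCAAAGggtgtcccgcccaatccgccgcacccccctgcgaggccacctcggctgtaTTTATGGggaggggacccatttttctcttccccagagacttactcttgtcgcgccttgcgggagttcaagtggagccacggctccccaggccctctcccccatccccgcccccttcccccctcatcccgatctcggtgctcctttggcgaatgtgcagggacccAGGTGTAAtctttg
Msgn1: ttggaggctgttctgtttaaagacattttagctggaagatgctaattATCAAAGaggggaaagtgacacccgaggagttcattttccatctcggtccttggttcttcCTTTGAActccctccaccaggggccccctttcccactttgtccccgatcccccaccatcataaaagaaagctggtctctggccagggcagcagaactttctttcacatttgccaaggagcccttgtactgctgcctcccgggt
Cdx2: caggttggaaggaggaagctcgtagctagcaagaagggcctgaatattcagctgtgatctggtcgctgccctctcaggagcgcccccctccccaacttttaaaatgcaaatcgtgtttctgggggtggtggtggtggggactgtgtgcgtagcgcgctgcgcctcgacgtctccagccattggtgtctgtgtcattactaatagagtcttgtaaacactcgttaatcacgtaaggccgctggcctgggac
Evx1: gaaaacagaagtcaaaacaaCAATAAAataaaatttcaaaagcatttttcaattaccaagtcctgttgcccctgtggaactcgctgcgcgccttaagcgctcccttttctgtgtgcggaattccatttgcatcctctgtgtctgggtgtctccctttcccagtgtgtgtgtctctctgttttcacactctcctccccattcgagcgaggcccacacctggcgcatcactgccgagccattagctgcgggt
The T stretch held 1 match to CTTTGAA, 1 to TTTATNG and 1 to AGGTGTNA, the last beginning 14 bases before the start site. Msgn1 held 1 match each to CTTTGAA and CTTTGAT. Evx1 held 1 match to TTTATNG, Tbx6 held 1 that contains the letters TATAAA of a TATA box, and Cdx2, Cdx4 and Nkx1-2 held none of the 4 motifs. Among 32851 promoter stretches of this length, 4.46% held CTTTGAA, 3.21% CTTTGAT, 9.81% TTTATNG and 2.68% AGGTGTNA. A match describes the letters alone and is no measurement of binding.

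At E9.5 all 8 genes were detected in both domains. Per kilobase of exon, T was the highest of them in E9.5 AoD, at a mean level of 6.66 RPM per kb, followed by Cdx4, Cdx2 and Cdx1 at 3.603, 3.554 and 3.55 RPM per kb. In E9.5 AoV the order differed, with Cdx2 at 11.8 RPM per kb, Evx1 at 3.18, T at 2.44 and Cdx4 at 2.11 RPM per kb. Nkx1-2 was the lowest there, at 0.255 RPM per kb. By E10.5 no gene but T in AoD had a mean level above 1 RPM per kb.

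**Figure D1:**
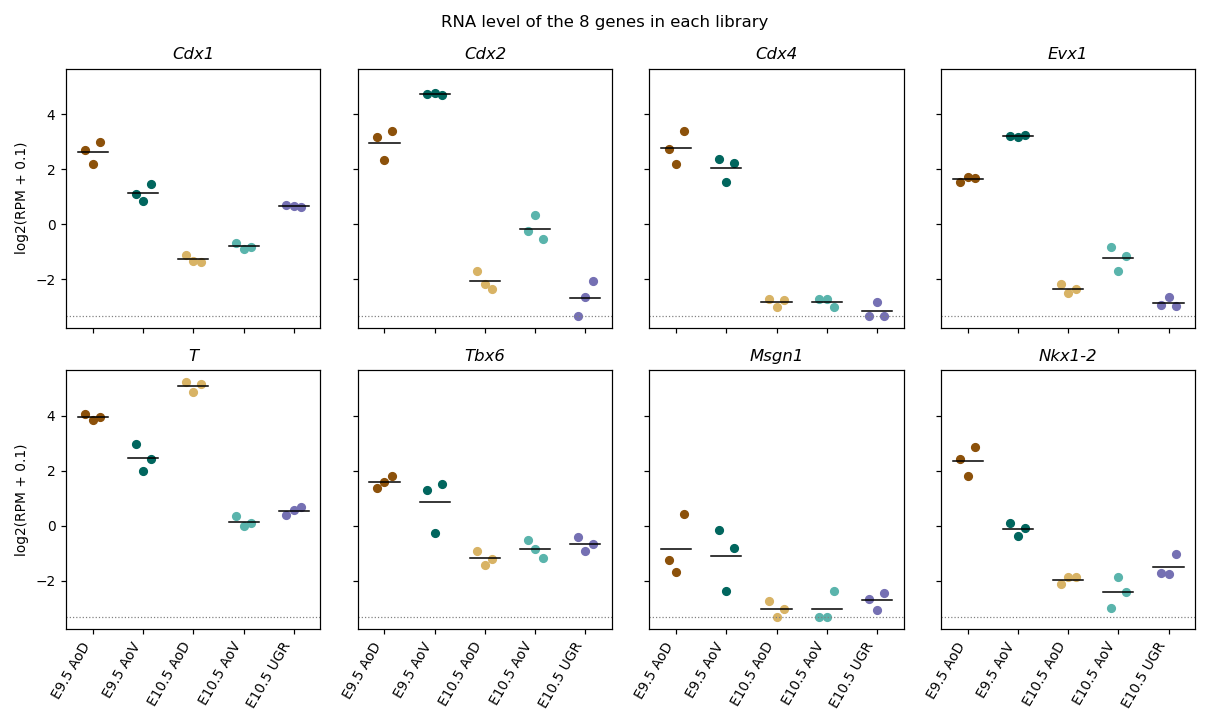
Level of each of the 8 genes on the log2(RPM + 0.1) scale (vertical axis) in the 3 libraries of each group (horizontal axis); points are libraries, black bars the mean of the log2 values, and the dotted line marks 0 RPM. Apart from T in AoD, the E10.5 aorta libraries lie below those of the same domain at E9.5, with 1 pair of ranges, Msgn1 in AoV, overlapping.

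The first comparison asked what changed in each aortic domain between E9.5 and E10.5, when the region becomes able to support stem cell formation on its own. In AoV, all 8 genes fell, where 4.99% of the 18553 genes tested were called lower, 6.04% higher and 11% in either direction. Their median log2 fold change was -2.31, and that of all genes tested was -0.00163. In AoD, 7 of the 8 fell and T rose, where 4% of the genes tested were called lower, 8.6% higher and 12.6% in all. The median of the 8 genes was -3.95 in AoD and that of all genes -0.00187. The ranges of the libraries were apart for 7 of the 8 genes in AoV and for 8 of 8 in AoD, against 55% and 60.7% of all genes tested.

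Cdx4 and Cdx2 were among the genes with the steepest falls of the 8. Cdx4, an X-linked caudal gene that acts early in posterior identity, measured 5.06, 2.78 and 4.59 RPM in the E9.5 AoV libraries and 0.0519, 0.0512 and 0.0233 RPM at E10.5. In AoD its levels were 6.51, 4.41 and 10.3 RPM at E9.5 against 0.0512, 0.0251 and 0.0473 RPM at E10.5. No E10.5 library of either domain held more than 2 reads of it, and the stages did not overlap. Summed over the 3 libraries, 535 reads in E9.5 AoV stood against 5 in E10.5 AoV, a depth-adjusted ratio of 99.99 (exact 95% interval 42.6 to 309, which covers counting error only). For AoD, 911 reads stood against 5, a ratio of 177 (interval 75.6 to 547). The log2 change of Cdx4 was -4.86 ± 0.28 (SE) in AoV (adjusted p = 6.063e-09) and -5.59 ± 0.28 in AoD (adjusted p = 1.412e-09).

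Cdx2, which also specifies hindgut, was measured at 26.5, 27.4 and 26.1 RPM in E9.5 AoV and at 0.752, 1.15 and 0.582 RPM in E10.5 AoV. Its E9.5 AoD libraries read 8.87, 4.94 and 10.3 RPM, and those of E10.5 AoD 0.205, 0.125 and 0.0947 RPM. The E9.5 AoV libraries were close to one another (SD 0.666 RPM, n = 3), and no E10.5 library of either domain reached the lowest E9.5 one. The log2 change of Cdx2 was -4.90 ± 0.32 in AoV and -5.03 ± 0.32 in AoD (adjusted p = 1.914e-08 and 1.033e-08). In AoD this was a ratio of 58.7 in reads, 1027 against 17 (interval 36.5 to 101).

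Cdx1, the family member most often studied as a direct target of Wnt and retinoic acid, kept more of its level. In AoV it went from 2.05, 1.69 and 2.66 RPM to 0.519, 0.435 and 0.466 RPM, and in AoD from 6.37, 4.49 and 7.78 RPM to 0.359, 0.301 and 0.284 RPM. The stages were apart in both domains. Its log2 change was -1.94 ± 0.19 in AoV (adjusted p = 1.026e-06) and -3.90 ± 0.19 in AoD (adjusted p = 1.021e-09). The difference between these changes, 1.96 ± 0.27, passed the test of the interaction of stage and position (adjusted p = 6.851e-05). For that interaction 3 of the 8 genes were called, against 11% of all genes tested (4.12% with a positive and 6.89% with a negative term).

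T, the T-box factor of primitive streak, tail bud and notochord, was the 1 gene of the 8 that moved in opposite directions in the 2 domains. In AoD its levels were 16.6, 14.1 and 15.5 RPM at E9.5 and 37.4, 28.6 and 35.8 RPM at E10.5. AoV libraries read 7.77, 3.85 and 5.3 RPM at E9.5 and 1.17, 0.895 and 0.978 RPM at E10.5. Every E10.5 AoD library was above every E9.5 AoD library, and every E10.5 AoV library below every E9.5 AoV library. T rose by 1.13 ± 0.19 on the log2 scale in AoD (adjusted p = 0.0001557), changed by -2.32 ± 0.19 in AoV (adjusted p = 2.115e-07), and had an interaction of -3.44 ± 0.27 (adjusted p = 4.615e-07).

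Tbx6, which turns progenitors to paraxial mesoderm, had 2.37, 0.742 and 2.78 RPM in E9.5 AoV and 0.597, 0.46 and 0.349 RPM in E10.5 AoV. In AoD the levels were 2.51, 2.9 and 3.42 RPM at E9.5 and 0.436, 0.276 and 0.331 RPM at E10.5. Replicate 2 of E9.5 AoV was close to the E10.5 libraries but did not overlap them. Tbx6 changed by -1.70 ± 0.35 in AoV (adjusted p = 0.001148) and by -2.77 ± 0.35 in AoD (adjusted p = 9.608e-06).

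Msgn1, a bHLH factor of early presomitic mesoderm, had the fewest reads of the 8 at E9.5, and 3 reads or fewer in 8 of 15 libraries. Its E9.5 AoV libraries read 0.798, 0.0928 and 0.475 RPM and those of E10.5 AoV 0, 0 and 0.0931 RPM. In AoD the values were 0.32, 0.215 and 1.24 RPM at E9.5 against 0.0512, 0 and 0.0237 RPM at E10.5. The AoV stages overlapped, with 4 reads in 1 library of each, while the AoD stages were apart. Msgn1 was called in AoV (-1.90 ± 0.55, adjusted p = 0.01129), but not without E9.5 AoV replicate 1 (-1.42, adjusted p = 0.0596). In AoD it was called at -2.19 ± 0.55 (adjusted p = 0.003379). Both calls were lost with a pseudocount of 0.5 RPM (-0.78 and -0.94).

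Evx1, a homeobox gene of the primitive streak and tail bud, varied little within its E9.5 groups. Its E9.5 AoV libraries read 9.16, 9 and 9.32 RPM and its E10.5 AoV libraries 0.471, 0.205 and 0.349 RPM. E9.5 AoD held 2.78, 3.23 and 3.13 RPM, and E10.5 AoD 0.122, 0.0753 and 0.0947 RPM. No ranges of the 4 aorta groups overlapped. Evx1 changed by -4.44 ± 0.20 in AoV (adjusted p = 5.412e-10) and by -3.999 ± 0.20 in AoD (adjusted p = 1.128e-09). In reads the E9.5 level was 26.9-fold (interval 19.7 to 37.7) and 30.7-fold (17.4 to 59.9) that of E10.5.

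Nkx1-2, a homeobox marker of the caudal epiblast and of the progenitors beside the node, had 5.25, 3.38 and 7.18 RPM in E9.5 AoD and 0.128, 0.174 and 0.176 RPM in E10.5 AoD. In AoV the levels were 0.985, 0.682 and 0.835 RPM at E9.5 and 0.0259, 0.177 and 0.0902 RPM at E10.5. The stages were apart in both domains. It changed by -4.31 ± 0.31 in AoD (adjusted p = 3.004e-08) and by -2.30 ± 0.31 in AoV (adjusted p = 2.372e-05), with an interaction of 2.01 ± 0.43 (adjusted p = 0.002716) that was not called with voom weights (1.72, adjusted p = 0.186). With a pseudocount of 1 RPM the AoV changes of Nkx1-2 (-0.74) and Tbx6 (-0.94) missed the fold limit.

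**Figure D2:**
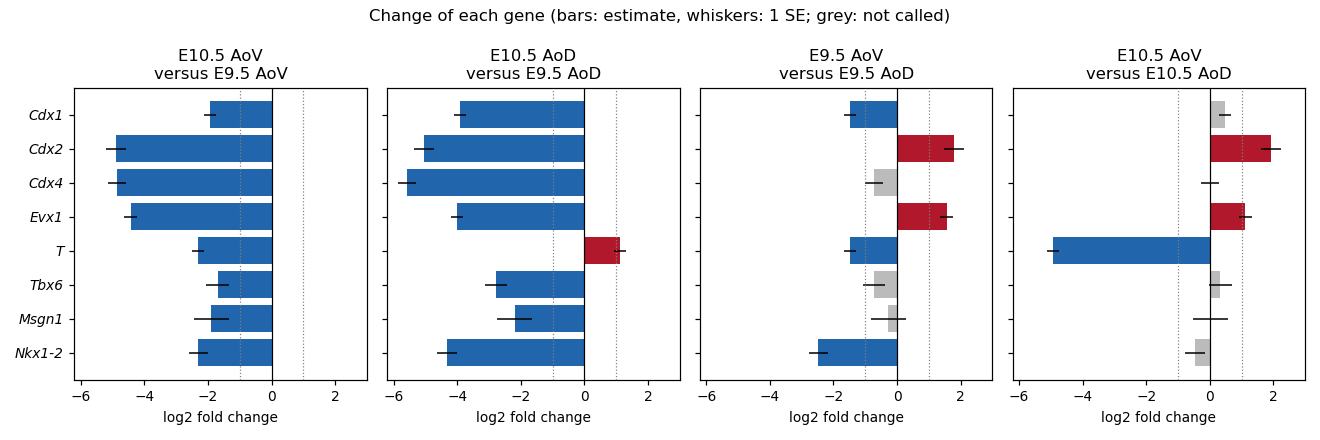
Log2 fold change (horizontal axis) of each gene (vertical axis) in 4 comparisons; bars are limma estimates, whiskers 1 SE, dotted lines the fold limit, red called higher, blue called lower and grey not called. All 8 bars of the E10.5 against E9.5 comparison in AoV are blue, T is the 1 red bar of the same comparison in AoD, and Cdx2 and Evx1 are the red bars of AoV against AoD at both stages.

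Other axial elongation genes were gathered in 4 lists, chosen by role but with earlier results of these data known, so they are no independent support. In each list more genes were called lower than higher at E10.5 in both domains. Of all genes tested, 4.99% (AoV) and 4% (AoD) were called lower. Of 9 Wnt and FGF ligands of the tail bud, 2 fell in AoV, Fgf17 (-2.23) and Wnt5a (-1.64), none rose and 7 were not called. In AoD 6 fell, Wnt3a (-4.11), Fgf17 (-3.58) and Fgf18 (-2.83) with the greatest changes, and Fgf4 rose by 1.42 from a mean level of 0.221 to 0.727 RPM. The list medians were -0.923 in AoV and -2.05 in AoD. Wnt3a, the Wnt ligand of the tail bud, averaged 2.67 ± 2.16 RPM (SD, n = 3) in E9.5 AoD and 0.260 ± 0.331 RPM in E9.5 AoV, and was at 0.0753 RPM or lower in all E10.5 libraries.

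Of 13 tail bud regulators and Wnt targets tested, 8 fell in AoV (median -1.26) and 8 in AoD (median -1.29), with none higher in either. Evx2, the paralog of Evx1 beside Hoxd13, changed by -5.63 in AoV, from 6.44 ± 1.52 to 0.0337 ± 0.0399 RPM. Sall4, a zinc finger factor of early progenitors, changed by -2.23 in AoV, from 101 to 21.4 RPM. In AoD the largest falls were those of Sp8 (-4.30), Evx2 (-2.74) and Sp5 (-2.56). Both Sp factors act downstream of Wnt signaling.

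Of 12 presomitic and segmentation genes, 4 fell in AoV, where 8 were not called, and 8 in AoD, with none higher and medians of -0.537 and -1.77. Ripply1, a repressor at the front of the presomitic mesoderm, changed by -2.92 in AoV, and Mesp2, which sets the segment border, by -3.85 in AoD. Of 14 posterior Hox genes tested, 7 fell and 1 rose in AoV (median -1.08) and 12 fell in AoD (median -2.23). In AoV, Hoxd13 (-6.65), Hoxa13 (-4.62) and Hoxd12 (-4.47) fell furthest, while Hoxd9, outside the 4 largest changes and named after its value was seen, rose by 1.35. In AoD, Hoxd11 (-5.40), Hoxd13 (-5.005) and Hoxd12 (-4.42) fell furthest.

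Markers of several surrounding tissues moved between the stages as well. The summed level of 8 neural tube markers was 216 to 405 RPM in E9.5 AoD and 28.8 to 51.2 RPM in E10.5 AoD, and all 8 fell. That of 7 gut endoderm markers was 351 to 431 RPM in E9.5 AoV and 46.5 to 49.6 RPM in E10.5 AoV, and 6 of 7 fell. In the other domain, 6 of the 8 neural tube genes fell in AoV and 5 of the 7 gut genes in AoD, with 0 higher. Other lists moved otherwise. In AoV, of 5 germ cell genes tested 3 rose and 1 fell, and of 7 nephric genes 2 rose and 0 fell. In AoD, 1 germ cell gene fell and 0 rose, and 4 nephric genes fell and 1 rose. The part of these tissues in the falls of the 8 genes was not tested.

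The second comparison asked how the ventral and dorsal domains differed at each stage. At E9.5, Cdx2 and Evx1 were higher in AoV and Cdx1, T and Nkx1-2 were lower, 5 of 8 called against 11.8% of all genes tested (8.32% higher and 3.47% lower). Library ranges were apart for those 5, as for 51.3% of all genes. Cdx2 averaged 26.7 ± 0.67 RPM (SD, n = 3) in E9.5 AoV and 8.04 ± 2.78 RPM in E9.5 AoD, a log2 difference of 1.78 ± 0.32 (adjusted p = 0.0003394). Evx1 averaged 9.16 ± 0.16 and 3.05 ± 0.24 RPM, a difference of 1.56 ± 0.20 (adjusted p = 1.349e-05).

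On the dorsal side, Nkx1-2 averaged 5.27 ± 1.90 RPM in E9.5 AoD against 0.834 ± 0.152 RPM in E9.5 AoV, a log2 difference of -2.47 ± 0.31 (adjusted p = 1.076e-05). T averaged 15.4 ± 1.25 against 5.64 ± 1.98 RPM and Cdx1 6.21 ± 1.65 against 2.13 ± 0.49 RPM. Both differed by -1.49 ± 0.19 (adjusted p = 1.625e-05 and 1.367e-05). The libraries of these 3 genes did not overlap between domains.

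Cdx4, Tbx6 and Msgn1 were not called, and their ranges overlapped between the groups. Within the 3 same-numbered pairs of libraries, Cdx4 and Tbx6 were each lower in AoV in 3 of 3 and Msgn1 in 2 of 3. Cdx4 averaged 4.14 ± 1.204 RPM in AoV and 7.07 ± 2.99 RPM in AoD, a difference of -0.72 ± 0.28 (adjusted p = 0.04944) that missed the fold limit and passed it without E9.5 AoD replicate 2 (-1.011, adjusted p = 0.00854). With a replicate block fitted to the E9.5 groups alone, the same difference of Cdx4 had an adjusted p of 0.00647 by limma, still short of the fold limit. For Tbx6 the difference was -0.73 ± 0.35 (adjusted p = 0.1018), with an adjusted p of 0.093 under that block, and it was called without E9.5 AoV replicate 3 (-1.07, adjusted p = 0.0267). Msgn1 differed by -0.28 ± 0.55 (adjusted p = 0.7111), and the sign turned without E9.5 AoD replicate 3 (0.35). The fits without a library kept its same-numbered partner.

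At E10.5, Cdx2 and Evx1 were again higher in AoV and T was lower, 3 of 8 called against 10.1% of all genes tested (5.81% higher and 4.29% lower). Library ranges were apart for those 3 and Cdx1, 4 of 8 against 49.5% of all genes. T averaged 33.9 ± 4.69 RPM in E10.5 AoD and 1.014 ± 0.14 RPM in E10.5 AoV, a log2 difference of -4.93 ± 0.19 (adjusted p = 1.813e-10). Cdx2 was at 0.828 ± 0.292 RPM in AoV and 0.142 ± 0.057 RPM in AoD, a difference of 1.92 ± 0.32 (adjusted p = 0.0002342) and of 5.85-fold in reads (99 against 17, interval 3.48 to 10.4). With a pseudocount of 1 RPM that difference was 0.67 and not called.

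Evx1 was at 0.342 ± 0.133 RPM in E10.5 AoV and 0.0973 ± 0.0235 RPM in E10.5 AoD, 41 reads against 12. Its difference of 1.12 ± 0.20 (adjusted p = 0.0003755) fell short of the fold limit without E10.5 AoV replicate 1 (0.91), with quantile normalization (0.92) and with a pseudocount of 0.5 RPM (0.48). Cdx1, at 0.473 against 0.315 RPM, was apart in its libraries but not called (0.47 ± 0.19, adjusted p = 0.0683). Cdx4, Tbx6, Msgn1 and Nkx1-2 overlapped between the domains, and for Cdx4 and Msgn1, with 3 to 5 reads per group, a difference was not detectable at this depth.

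The excess of Cdx2 in AoV over AoD, 1.78 at E9.5 and 1.92 at E10.5, differed between stages by 0.14 ± 0.45 (adjusted p = 0.8632), with the sign depending on the pseudocount (-0.70 at 0.5 RPM). For Evx1 the same term was -0.44 ± 0.28 (adjusted p = 0.2841), and with a pseudocount of 1 RPM it was called (-1.04).

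Markers of other tissues differed between the E9.5 domains in the same samples. The gut endoderm sum was 351 to 431 RPM in E9.5 AoV and 64.2 to 71.4 RPM in E9.5 AoD, with 5 of 7 genes higher in AoV, Nepn and Hnf4a by 6.73 and 5.53 on the log2 scale. The neural tube sum was 18.7 to 23.4 RPM in AoV and 216 to 405 RPM in AoD, with 8 of 8 lower in AoV, Neurog2 and Olig2 by -5.45 and -5.41. The somite sum was 58.7 to 78.7 RPM in AoV and 451 to 455 RPM in AoD, where Meox1 alone averaged 294 RPM. Of its 6 genes, 5 were lower in AoV and 1, Nkx3-2, was higher (7.56 against 2.78 RPM). None of these lists was at 0 in either domain, and their part in the differences of the 8 genes was not tested.

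Among the pathway lists, the presomitic genes were the most one-sided at E9.5, with 10 of 12 lower in AoV and none higher (median -1.74, against 0.0183 for all genes tested). Tcf15, a factor of the forming somites, differed by -2.78, and the Notch pathway genes Lfng, Dll3 and Dll1 by -2.59, -2.43 and -2.31. Of the ligands, 5 of 9 were lower in AoV, Wnt3a by -2.95 and Fgf8 by -1.89, and none was higher. Of the 13 regulators, Sp8 (-2.15) and Sp5 (-1.74) were lower and Evx2 (3.05) and Dkk1 (1.25), a Wnt inhibitor, were higher.

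Of the 14 posterior Hox genes tested, 9 were not called between the domains at E9.5. Hoxa13 (3.24), Hoxd13 (2.11) and Hoxd12 (1.25) were higher in AoV, and Hoxb9 (-2.001) and Hoxc9 (-1.11) were lower. Hoxd13 averaged 49.1 ± 8.78 RPM in E9.5 AoV and 11.6 ± 4.05 RPM in E9.5 AoD. At E10.5, 8 of 14 were higher in AoV and none lower (median 1.17). Hoxd11 (3.15), Hoxd10 (2.65), Hoxa11 (2.56) and Hoxd9 (2.11) had the greatest differences then, whereas Hoxd13 (0.47), Hoxa13 (0.88) and Hoxb9 (-0.99) were not called. Hoxd13 and Hoxa13 were low by then, at means of 0.507 and 0.117 RPM in AoV against 0.268 and 0.0164 RPM in AoD. Their E10.5 differences are therefore understated on this scale.

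**Figure D3:**
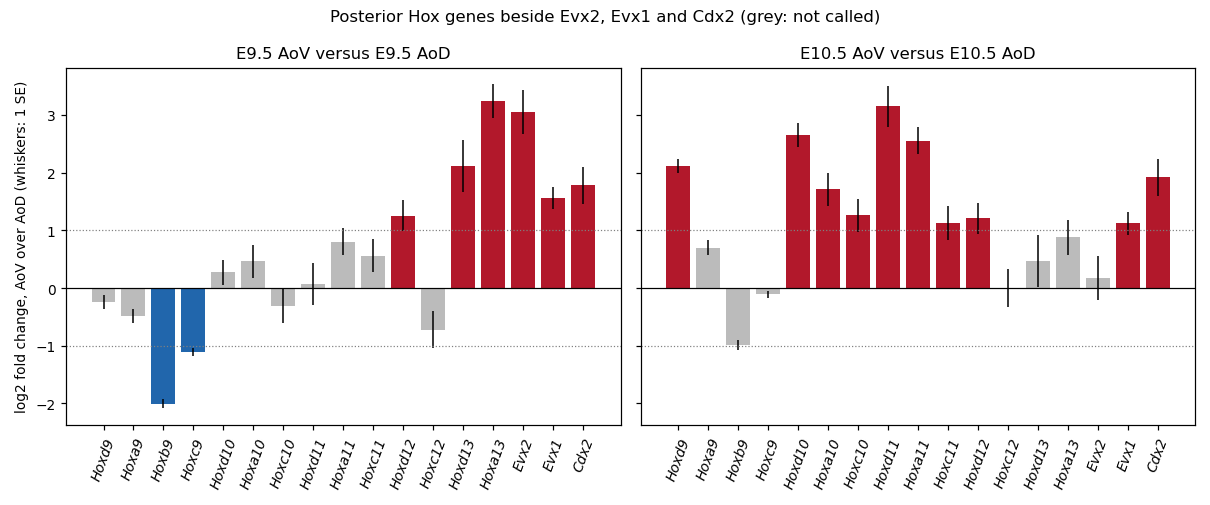
Log2 fold change of AoV over AoD (vertical axis) at E9.5 (left) and E10.5 (right) for 14 posterior Hox genes ordered by paralog number, then Evx2, Evx1 and Cdx2 (horizontal axis); bars are limma estimates, whiskers 1 SE, red called higher, blue called lower, grey not called. The tallest Hox bar is Hoxa13 (3.24) at E9.5 and Hoxd11 (3.15) at E10.5, while Cdx2 and Evx1 are red at both stages.

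T in E10.5 AoD stood apart from the other 7 genes, whose mean levels there were 0.025 to 0.348 RPM. It was 4.54 ± 0.19 on the log2 scale above E10.5 UGR as well (adjusted p = 2.028e-10). Shh, a signal secreted by notochord and floor plate, averaged 117 ± 6.08 RPM in E10.5 AoD and 38.6 ± 4.79 RPM in E9.5 AoD, a rise of 1.61 on the log2 scale (adjusted p = 2.727e-07). In E10.5 AoV it averaged 1.70 ± 0.24 RPM. Foxa1 rose by 1.24 from E9.5 to E10.5 in AoD, from 4.62 to 11.1 RPM, whereas Foxa2, a notochord and endoderm factor, changed by -1.56 to 3.95 RPM. Noto, which marks the early and caudal notochord, changed by -3.21 from 0.972 ± 0.044 RPM, with at most 1 read in each E10.5 AoD library (0 to 0.0256 RPM).

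The notochord list as a whole had 2 of 6 genes higher and 2 lower in E10.5 AoD than in E9.5 AoD, and its sum was 136 to 153 RPM against 64.5 to 74.9 RPM. Shh made up that rise: without it the other 5 genes summed to 22.5 to 28.7 RPM in E10.5 AoD, below the 30.1 to 31.5 RPM of E9.5 AoD. In AoV the sum of the 6 genes was 135 to 179 RPM at E9.5 and 16.9 to 21.4 RPM at E10.5. At E9.5, Foxa1 and Krt19 averaged 51.5 and 45.0 RPM in AoV against 4.62 and 10.7 RPM in AoD. The other 4 genes were not called between these domains. Foxa genes are also expressed in gut endoderm, whose 7 markers summed to 351 to 431 RPM in E9.5 AoV and 25.6 to 31.3 RPM in E10.5 AoD. Of 6 somite genes, 2 rose and 2 fell in AoD: the sclerotome genes Pax1 (2.12, from 67.5 to 299 RPM) and Nkx3-2 (1.49) rose, and Pax3 (-2.86, from 67.4 to 9.10 RPM), a gene of dermomyotome and dorsal neural tube, and the muscle factor Myf5 (-1.08) fell. The part of these tissues in the rise of T was not tested.

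**Figure D4:**
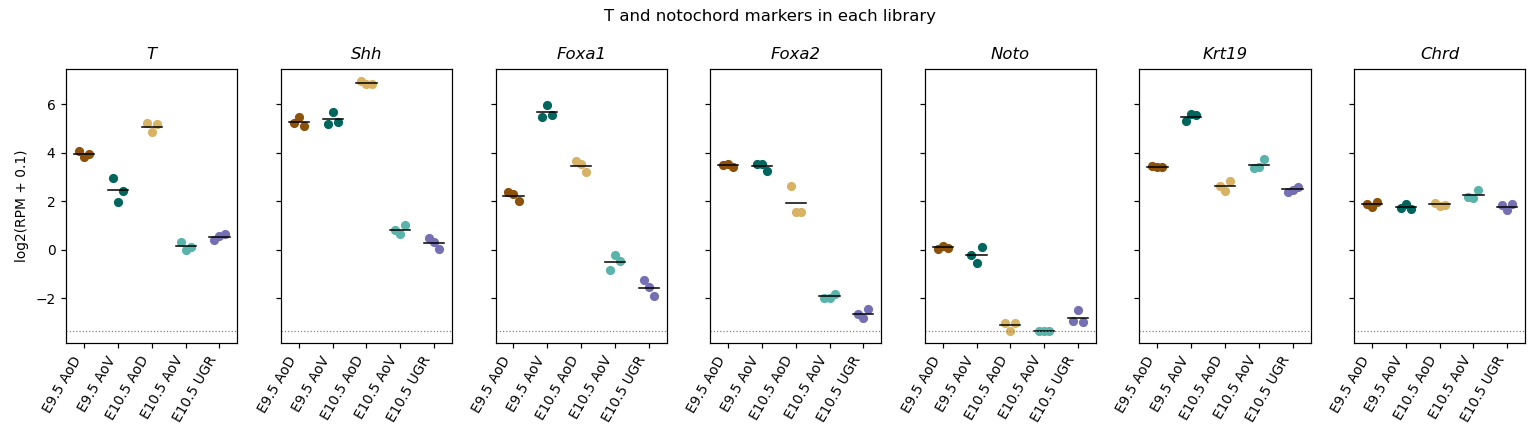
Level of T and 6 notochord markers on the log2(RPM + 0.1) scale (vertical axis) in the 3 libraries of each group (horizontal axis); points are libraries, black bars the mean of the log2 values, and the dotted line marks 0 RPM. T and Shh are highest in E10.5 AoD (33.9 and 117 RPM on average), where Noto is at 0.0256 RPM or lower.

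The third comparison set the E10.5 aortic domains against the urogenital ridges, which hold the mesonephros and gonad primordia. Cdx1 was higher in UGR than in both domains, while Cdx2 and Evx1 were higher in AoV than in UGR and T was higher in AoD. Called were 3 of 8 genes for AoV against UGR and 2 of 8 for AoD against UGR, where 7.57% and 11.3% of all genes tested were called. In AoV these were 3.84% higher and 3.73% lower, and in AoD 4.76% and 6.56%. Library ranges were apart for 5 of 8 genes between AoV and UGR and for 4 of 8 between AoD and UGR, against 48.6% and 50.9% of all genes. Cdx1 levels in UGR were 1.51, 1.48 and 1.46 RPM, above every E10.5 AoV and AoD library. The log2 difference was -1.47 ± 0.19 for AoV (adjusted p = 2.87e-05) and -1.94 ± 0.19 for AoD (adjusted p = 9.99e-07), and both fell short of the fold limit at a pseudocount of 1 RPM (-0.75 and -0.92). The 2 comparisons share the UGR libraries. The gut endoderm list summed to 217 to 224 RPM in UGR, against 46.5 to 49.6 in AoV and 25.6 to 31.3 in AoD, with 5 of its 7 genes lower in each aortic domain than in UGR. Its members Cdh1 and Epcam are also epithelial genes of the nephric duct, and the part of either tissue in the Cdx1 level was not tested.

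Cdx2 in UGR was at 0, 0.0617 and 0.141 RPM, 8 reads in all, below each E10.5 AoV library. The AoV excess was 2.51 ± 0.32 (adjusted p = 2.664e-05), or 12.1-fold in reads (interval 5.91 to 28.8). Evx1 was at 0.0296, 0.0617 and 0.0282 RPM in UGR, 5 reads in all, and the AoV excess was 1.62 ± 0.20 (adjusted p = 1.759e-05) and 8.02-fold in reads (3.17 to 26.0). Both missed the fold limit at a pseudocount of 1 RPM (0.77 and 0.36), and Evx1 also at 0.5 RPM (0.63). T was at 1.21, 1.38 and 1.49 RPM in UGR, above every AoV library but not called against AoV (-0.39 ± 0.19, adjusted p = 0.1446).

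Nkx1-2 was at 0.207, 0.196 and 0.39 RPM in UGR, above every AoV library. Its AoV difference of -0.92 ± 0.31 (adjusted p = 0.03604) missed the fold limit, and passed it without E10.5 AoV replicate 2 (-1.196) or without UGR replicate 2 (-1.05). Tbx6 was at 0.652, 0.432 and 0.535 RPM in UGR and overlapped AoV. Cdx4 had 2 reads, both in replicate 2, and Msgn1 was at 0.0593, 0.0206 and 0.0845 RPM.

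Taking the 5 groups in order of mean level, Cdx1 ran from E9.5 AoD through E9.5 AoV, E10.5 UGR and E10.5 AoV to E10.5 AoD, with no neighbours overlapping. Cdx2 and Evx1 had the same order as each other, E9.5 AoV, E9.5 AoD, E10.5 AoV, E10.5 AoD and E10.5 UGR, and for Cdx2 the last pair overlapped. T ran from E10.5 AoD through E9.5 AoD, E9.5 AoV and E10.5 UGR to E10.5 AoV with no overlap. Cdx4, Tbx6 and Msgn1 were highest in E9.5 AoD and then E9.5 AoV, which overlapped each other but not the E10.5 group next in order. At E10.5, Cdx4 ran from AoV through AoD to UGR, and Tbx6 and Msgn1 from UGR through AoV to AoD, with neighbours overlapping. For Msgn1, E9.5 AoV (lowest 0.0928 RPM) still overlapped E10.5 AoV (highest 0.0931 RPM). Nkx1-2 ran from E9.5 AoD through E9.5 AoV, E10.5 UGR and E10.5 AoD to E10.5 AoV, with only the last pair overlapping. In the pairwise comparisons above, library ranges were apart for 48.6% to 60.7% of all genes tested.

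The genes also varied among libraries of 1 group. In E9.5 AoV, replicate 2 was low for Msgn1 (-1.27 from the group mean on the log2 scale), Tbx6 (-1.11), Cdx4 (-0.52), T (-0.48), Cdx1 (-0.30) and Nkx1-2 (-0.24), while Cdx2 (0.04) and Evx1 (-0.03) were near the group mean. In that library 7 of the 9 tail bud ligands (median -0.493), 11 of the 12 presomitic genes (median -0.375) and 4 of the 6 somite genes (median -0.263) were below the group mean as well. Of the 7 gut endoderm genes 0 were (median 0.14), and the medians of the other lists lay between -0.112 and 0.163.

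In E9.5 AoD, replicate 2 was low and replicate 3 high for Msgn1 (-0.84 and 1.25), Cdx2 (-0.63 and 0.42), Cdx4 (-0.59 and 0.62), Nkx1-2 (-0.56 and 0.50) and Cdx1 (-0.43 and 0.36). T (-0.12 and 0.01), Evx1 (0.08 and 0.04) and Tbx6 (-0.01 and 0.22) deviated less. All 8 neural tube genes were below the group mean in replicate 2 (median -0.464) and all 8 above it in replicate 3 (median 0.505). The 9 tail bud ligands had medians of -0.541 and 0.497, and the 7 nephric genes went the opposite way, with medians of 0.669 and -0.656. The medians of the other lists were -0.0648 to 0.0564 in replicate 2 and -0.257 to 0.221 in replicate 3. What these libraries differ in was not tested.

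**Figure D5:**
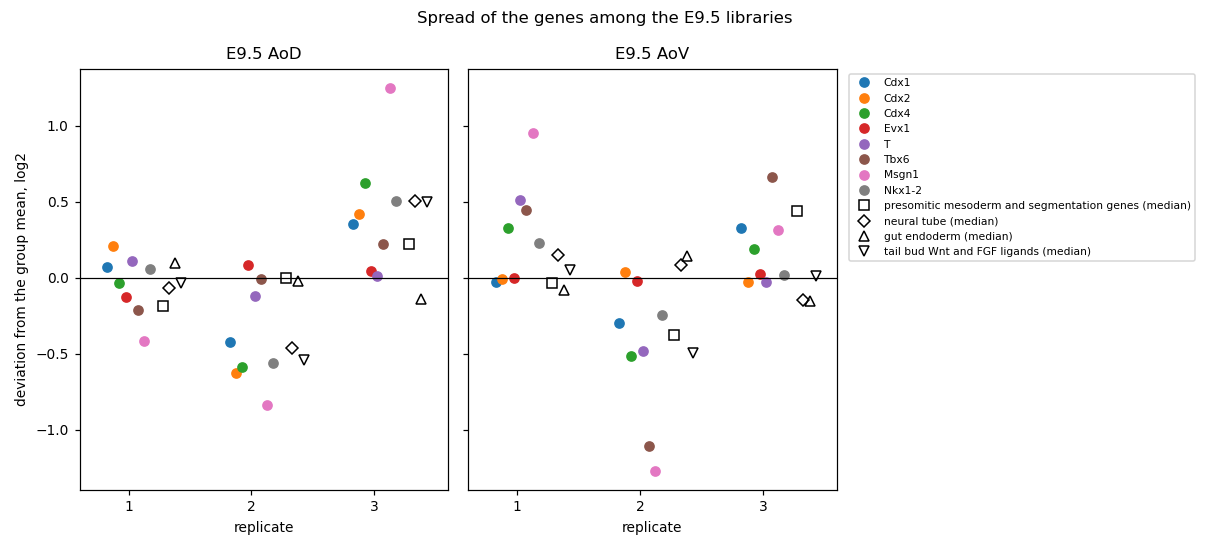
Deviation from the group mean on the log2 scale (vertical axis) in each E9.5 library (horizontal axis: replicate number; left AoD, right AoV); filled points are the 8 genes and open symbols the median of 4 gene lists. Msgn1 and Tbx6 lie lowest in AoV replicate 2 (-1.27 and -1.11), and Msgn1 highest in AoD replicate 3 (1.25).

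Over the 15 libraries, the correlation of log2(RPM + 0.1) between Cdx2 and Evx1 was 0.983 (Pearson's r), and between Cdx1 and Nkx1-2 it was 0.911. Tbx6 had r of 0.928 with Cdx4 and 0.891 with Msgn1. T had r of 0.0962 to 0.406 with the other 7. These values are descriptions: the libraries fall into 5 groups and share 1 table, so the points are not independent.

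Of 16322 genes outside the 8 with a unique name and a mean level of at least 1 RPM in some group, those most like Evx1 were AC015583.5, Hoxd12 (both r = 0.992) and Hoxd13 (0.989). The nearest to Cdx2 were Tbx5 (0.981), AC015583.5 (0.976) and Hoxd12 (0.973). Tbx5, a T-box gene of heart and forelimb, averaged 12.7 ± 1.05 RPM in E9.5 AoV, 3.21 ± 1.08 RPM in E9.5 AoD, 0.763 ± 0.440 RPM in E10.5 AoV and 0.131 ± 0.048 RPM in E10.5 AoD. Samd3 (0.975), Nxn (0.972) and Adamtsl2 (0.962) were most like T. For Cdx4 they were Slc2a1 (0.986), Fam57a (0.98) and Wnt3 (0.975), and for Cdx1 Zfp385a (0.982), Eif3c (0.981) and Cdca7 (0.98). Tbx6 was nearest to Rbm19 (0.957), Tnpo2 (0.949) and Dcaf13 (0.946), Msgn1 to Rabggtb (0.916), Fgf3 (0.914) and 2510012J08Rik (0.91), and Nkx1-2 to AC158992.1 (0.988), Afg3l1 (0.987) and Tcof1 (0.98).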

How the data were processed

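RNA was measured in 15 libraries, 5 groups of 3. Per the study's methods, pooled tissue from 15 to 34 embryos was collected in separate experiments and sequenced as 50-base single-end reads, which the authors aligned to NCBIM37 (Bowtie 0.12.3 in the submitters' processing notes) and counted with GeneProf. The authors deposited RPM, reads-per-million assigned to genes, which this work found rounded to 3 significant digits. The deposited table also holds 12 columns of the authors' DESeq log2 fold changes and adjusted p-values for 6 comparisons, which were not used. No count test was run: at most 70.5% of low values in a library were whole reads within 0.05 reads.

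Genes at 0.5 RPM or more in at least 1 library (18553) were fitted with limma 3.58.1 (R 4.3.3) as log2(RPM + 0.1), with 5 group means, a mean-variance trend and Benjamini-Hochberg adjustment over all genes tested. The code was tested on simulated data. No 2 libraries of a group agreed within sampling noise, and p-values measure the spread between these pooled libraries. Alternatives were other pseudocounts (0.5 and 1 RPM), filters, scalings, voom weights, fewer groups, a replicate block and leaving out each library. Same-numbered libraries of E9.5 AoD and AoV deviated together (r = 0.452, 0.347 and 0.19) and were taken as paired by that rule alone. In the other comparisons at least 1 pair had r at or below 0.1. The SEs and p-values given for the E9.5 domains leave that pairing out, except where a block is named. With the block fitted to the E9.5 groups alone, the SE of the E9.5 domain difference was 0.19 for Cdx2 (0.32 without) and 0.094 for Evx1 (0.20 without). The calls of the 8 genes were the same.

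The members and lists were chosen with earlier results of these data known. Named beside the 8 members are at most 4 called genes per list and comparison, those with the largest changes, and the 3 genes most correlated with each member. Lin28a, on the regulator list, was matched to no gene of the table by that name.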

Additional observations from a re-analysis of the deposited data

Results flagged for a closer look

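For 3 of the 8 genes the stage change in AoV was not that in AoD, by the limma test of the interaction of stage and position. T had a difference of -3.44 on the log2 scale (AoV change minus AoD change), falling in AoV and rising in AoD. Cdx1 had a difference of 1.96 and Nkx1-2 one of 2.01, both falling further in AoD. The values of T and Cdx1 kept their side of the threshold under each alternative run, and that of Nkx1-2 under all but voom weights.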

How the results depend on the processing

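With a pseudocount of 1 RPM, the genes called for E10.5 AoV versus E9.5 AoV were 1104, for E10.5 AoD versus E9.5 AoD 1281, for E9.5 AoV versus E9.5 AoD 1196, for E10.5 AoV versus E10.5 AoD 1020, for E10.5 AoV versus E10.5 UGR 735, for E10.5 AoD versus E10.5 UGR 1143 and for the interaction of stage and position 1174, against 2046, 2337, 2187, 1874, 1404, 2100 and 2044. The members called were then 5 for E10.5 AoV versus E9.5 AoV and 1 for E10.5 AoV versus E10.5 AoD. Against E10.5 UGR, limma then called 0 for E10.5 AoV and 1 for E10.5 AoD. For AoV against UGR, 3 of the 8 had both an unadjusted and an adjusted p under 0.05 and missed only the fold limit. With voom weights 3 were called there. Of the sign changes, none fell on a called value. The log2 fold change for E10.5 AoV versus E10.5 AoD became -0.21 for Cdx4 and -0.11 for Msgn1 with quantile normalization, and -0.0037 and -0.22 with voom weights. For the interaction, Cdx2 became -0.70 and -0.997 with pseudocounts of 0.5 and 1 RPM, and Evx1 became 0.053 with voom weights. Leaving out each library in turn gave Cdx4 -0.077 to 0.107 and Msgn1 -0.30 to 0.17 for E10.5 AoV versus E10.5 AoD, Msgn1 -0.75 to 0.36 for E9.5 AoV versus E9.5 AoD, and, for the interaction, Cdx2 -0.10 to 0.45 and Msgn1 -0.34 to 0.77. The causes were not tested. Over 56 member values, 1288 alternatives left direction and call as they were, 20 reversed the sign, 18 lost and 6 gained a call, among them the interaction of Tbx6 without E9.5 AoV replicate 3 (1.40, against 1.07). For T, all 169 left both as they were. These counts include runs that cannot move a log2 fold change and can only alter its p-value. They are the other filters, fewer groups, the replicate block, and leaving out a library of a group that is not compared. With the replicate block, 8, 8, 5, 3, 3, 2 and 3 members were called in the order of comparisons above, as without it. A block fitted to the E9.5 groups alone, chosen after seeing the data, called 5 members and 2093 genes. Quantile normalization moved the split of calls for E9.5 AoV versus E9.5 AoD from 1544 higher and 643 lower to 1200 and 820. Depth limits Cdx4, Msgn1, Evx1, Cdx2 and Nkx1-2 at E10.5, where a library can hold 5 reads or fewer.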

Other observations

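Some Wnt and FGF pathway genes of the tail bud differed between UGR and the aortic domains at E10.5. Of 9 ligands, 2 were lower in AoV than in UGR and 2 in AoD, and none was higher. Of 13 regulators and Wnt targets, 5 were lower and 2 higher in AoV than in UGR, and 3 lower and 2 higher in AoD, where 3.73% and 6.56% of all genes tested were called lower. Fgf8, a ligand of tail bud and kidney mesenchyme, averaged 3.93 ± 0.47 RPM (SD, n = 3) in UGR, 0.536 ± 0.122 RPM in E10.5 AoV and 0.660 ± 0.175 RPM in E10.5 AoD, and both domains were lower by limma (-2.68 and -2.42 on the log2 scale, adjusted p = 1.573e-06 and 2.174e-06). Sp5, a Wnt target, averaged 2.68 ± 0.22 RPM in UGR and was lower in AoV (-2.27, adjusted p = 3.741e-07) and AoD (-1.31, adjusted p = 5.082e-05). Dkk1 averaged 22.0 ± 1.62 RPM in UGR, against 5.92 ± 0.74 in AoV and 1.41 ± 0.58 in AoD, the reverse of Sp8, which averaged 0.173 ± 0.032 RPM in UGR and 1.12 and 1.03 RPM in the 2 domains. Rspo3, a secreted enhancer of Wnt signaling, was the other gene higher in both domains (1.05 in AoV and 1.08 in AoD).

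Posterior Hox genes changed by different amounts in the 2 aortic domains from E9.5 to E10.5. Of 14 tested, 8 had a higher change in AoV than in AoD and 1, Hoxa13 (-2.36, adjusted p = 0.0006809), a lower one, where 11% of all genes tested were called. Hoxa13 went from 5.30 to 0.117 RPM in AoV and from 0.482 to 0.0164 RPM in AoD. Its E10.5 AoD level is below the pseudocount of 0.1 RPM, which understates the AoD fall the most and so enlarges this term. Hoxd11 went from 24.3 ± 5.35 to 4.94 ± 1.99 RPM in AoV and from 22.9 ± 3.11 to 0.504 ± 0.314 RPM in AoD, an interaction of 3.07 (adjusted p = 0.0003696). Hoxd10 and Hoxd9 had interactions of 2.38 and 2.35 (adjusted p = 3.62e-05 and 1.988e-07).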
